A study of Mus musculus with 4 samples.

Results

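Single-cell RNA-seq libraries of lung cells depleted to enrich mural cells (mural-enriched, 4 libraries) were compared, mouse by mouse, with libraries of the whole lung (whole-cell, 4 libraries), and these make up all 8 libraries of the series. The 4 mice were 2 WT and 2 Tubb3-/- mice, 8 to 11 weeks old, and each gave 1 library of either kind. Tubb3-/- mice carried Cre inserted into both *Tubb3* alleles, and WT mice were their littermates. All lungs were taken 14 days after intratracheal bleomycin at 0.8 U/kg, and no untreated lung was among them. Whole-cell suspensions were depleted of TER-119+ red cells only, and live cells were sorted. Mural-enriched suspensions were depleted of CD31+, CD45+, EpCAM+ and TER-119+ cells with magnetic beads, then sorted into MCAM+ PDGFRα- and MCAM- cells, which were mixed in equal parts. The share of mural cells and of other MCAM+ cells was thus set in part by the mixing, and MCAM+ PDGFRα+ cells were left out by the sort. The depletion was done on each mouse, but sorting and library preparation were done on 1 tagged pool per fraction, so fraction and pool cannot be told apart, and p-values measure the spread between mice only. Of 32121 cells, 30860 had 200 to 7500 genes and at most 15% mitochondrial UMIs (unique molecular identifiers) and were kept, 14160 whole-cell and 16700 mural-enriched.

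CD31, CD45 and EpCAM are surface proteins of endothelial, hematopoietic and epithelial cells, and their genes are *Pecam1*, *Ptprc* and *Epcam*. TER-119 binds red cells and has no gene of its own. MCAM is a surface protein of mural cells, the pericytes of capillaries and the smooth muscle cells of larger vessels and airways, and endothelial cells also carry it. PDGFRα marks most lung fibroblasts. Depletion with beads removes cells by the amount of surface protein, so a cell type can be removed in part, and the remaining cells of a type need not be a random sample of it.

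The libraries held 3119 to 4815 cells each, with a median of 9436 to 12724 UMIs per cell in whole-cell and 12627 to 16495 in mural-enriched libraries. Doublet scores were above threshold in 0.982% of whole-cell and 3.82% of mural-enriched cells, and these cells were kept. The threshold was set in each pool, at 0.357 and 0.209, so these percentages are not on 1 scale. The 2 pools shared 55 cell barcodes, 20 of them in both libraries of 1 mouse. *Tubb3*, which checks the genotype labels, was read from 83 and 35 UMIs in whole-cell cells of WT and from 18 and 17 UMIs in those of Tubb3-/- mice. The mural-enriched libraries had 332 and 184 UMIs in WT and 62 and 51 in Tubb3-/- mice. Levels of *Tubb3* were lower in Tubb3-/- mice in either fraction but not 0, and its locus (GRCm38 chromosome 8, 123411424 to 123422015) is overlapped by *Gm20388* on the same strand. Relative to all genes, *Tubb3* was higher in mural-enriched libraries by 1.56 ± 0.200 (log2 fold change ± SE, n = 4 mice, edgeR adjusted p = 0.00072).

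Which cells did the depletion and sort remove? Cells were assigned to 8 gates by the expression of marker genes that exclude the genes of the sorting antigens, and the share of each gate was compared within mice. The immune gate held 57.0%, 48.7%, 46.5% and 46.0% of cells in the whole-cell libraries of WT mice 1 and 2 and Tubb3-/- mice 1 and 2. In the mural-enriched libraries of the same mice it held 0.981%, 2.76%, 1.93% and 1.60%. All 4 mice lost immune cells, by 27.2-fold on average (log2 ratio -4.81 ± 0.307, edgeR adjusted p = 4.54e-05). The endothelial gate fell from 19.2% ± 4.57 to 5.76% ± 1.63 (SD, n = 4; log2 ratio -1.75 ± 0.131, edgeR adjusted p = 7.49e-05). The lowest whole-cell share of endothelial cells was 12.7% and the highest mural-enriched share was 7.85%, so the groups did not overlap. The endothelial share was 3.33-fold lower on average.

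Mural, fibroblast and mesothelial cells took a larger share after depletion and sorting. The mural gate rose from 3.96% ± 0.392 to 28.6% ± 4.08 (log2 ratio 2.84 ± 0.0988, edgeR adjusted p = 6.36e-06), 7.21-fold over the mice. In WT mouse 1 the mural share was 4.32% against 34.5%, and in Tubb3-/- mouse 2 it was 3.47% against 27.1%. The fibroblast gate rose from 17.9% ± 1.86 to 49.4% ± 2.02 (log2 ratio 1.47 ± 0.0793, edgeR adjusted p = 2.96e-05) and was the largest gate in the mural-enriched libraries of all 4 mice. Mesothelial cells, the lining of the pleura, rose from 0.772% ± 0.444 to 2.02% ± 0.416 (log2 ratio 1.45 ± 0.253, edgeR adjusted p = 0.00288). Glial cells were counted 3 times in whole-cell and 17 times in mural-enriched libraries. Ungated cells rose from 5.82% ± 0.218 to 9.93% ± 0.396, and 2 erythroid cells in all were found in whole-cell libraries against 0 in mural-enriched ones, which allows a share of up to 0.0180%. An exact sign-flip test over 4 mice cannot go below p = 0.13, the value of each of these shares that moved the same way in every mouse.

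**Figure D1:**
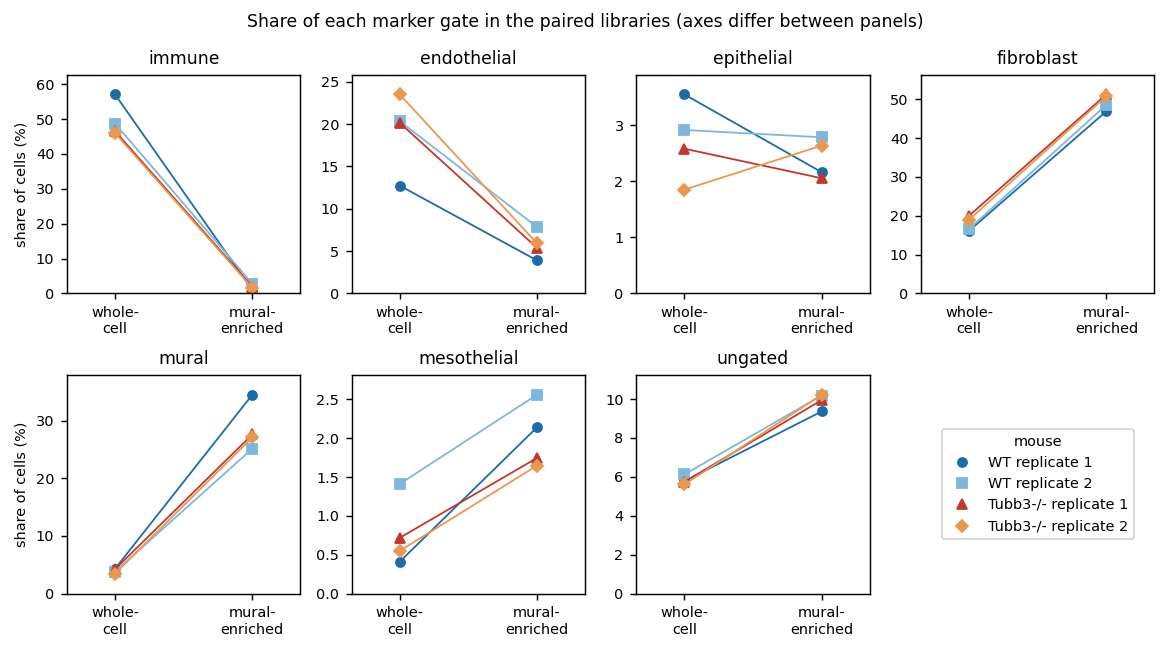
Share of cells (percent, linear axes from 0 that differ between panels) in 6 marker gates and in ungated cells, with 1 point per library and a line joining the 2 libraries of a mouse. Immune and endothelial shares were lower and fibroblast, mural and mesothelial shares higher in the mural-enriched library of each mouse, while the epithelial share moved in both directions.

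The epithelial gate did not lose share. It held 3.55%, 2.92%, 2.58% and 1.85% of whole-cell libraries and 2.16%, 2.79%, 2.06% and 2.64% of mural-enriched libraries, in the same order of mice. It was lower in 3 mice and higher in 1, with a log2 ratio of -0.16 ± 0.213 (edgeR adjusted p = 0.486). The 95% interval of the log2 ratio, taken from the normal distribution and so too narrow for this few mice, was -0.58 to 0.26. A share depends on what else was removed, and immune cells made up 49.6% of whole-cell libraries. Set against fibroblasts, which none of the depleting antibodies target, the same cells gave another picture. For every 100 fibroblast-gate cells there were 15.6 ± 5.38 epithelial cells in whole-cell and 4.89 ± 0.745 in mural-enriched libraries, 3.19-fold fewer, and the groups did not overlap. On this scale endothelial cells were 9.15-fold and immune cells 76.4-fold fewer. Mural cells were 2.60-fold more, from 22.3 ± 3.55 to 58.1 ± 10.3 for every 100 fibroblasts. Mesothelial cells, at 4.38 ± 2.78 and 4.12 ± 0.964 for every 100 fibroblasts, overlapped between fractions. This scale was chosen after the shares had been seen. It also depends on the mixing of MCAM+ PDGFRα- and MCAM- cells in equal parts. For mural and endothelial cells, which carry MCAM, depletion and mixing cannot be told apart on it.

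Both subgates of the mural gate rose as a share of all cells, smooth muscle cells more than pericytes. Smooth muscle cells, defined by contractile genes such as *Myh11* and *Cnn1*, rose from 3.38% ± 0.409 to 26.5% ± 5.02 of all cells. Pericytes, defined by *Higd1b*, *Cox4i2*, *Ndufa4l2*, *Kcnk3* and *Lamc3*, rose from 0.472% ± 0.115 to 1.56% ± 0.930, a mean ratio of 3.30-fold against 7.84-fold for smooth muscle. Their number was 66 cells in the 4 whole-cell libraries and 249 in the 4 mural-enriched ones. As a share of the mural gate, pericytes fell from 12.1% ± 3.50 to 5.78% ± 4.01 (log2 ratio -1.14 ± 0.259, edgeR adjusted p = 0.00575), lower in all 4 mice. There were 9.85, 4.80, 8.61 and 6.87 smooth muscle cells for each pericyte in the whole-cell libraries of the 4 mice, and 44.3, 7.48, 23.7 and 16.8 in the mural-enriched ones. The ratio was higher in the mural-enriched library of every mouse, although WT mouse 2 lay within the range of whole-cell libraries. Smooth muscle cells were scored on contractile genes such as *Acta2* and *Actg2*, which also rose in the endothelial, immune and epithelial gates. Within pericytes, 2 of 4 other contractile genes tested were higher, *Tagln* by 0.91 ± 0.179 and *Tpm2* by 0.95 ± 0.177. Whether this moved pericytes out of their subgate was not tested. For every 100 fibroblasts there were 2.67 ± 0.801 pericytes in whole-cell and 3.15 ± 1.92 in mural-enriched libraries, higher in 2 mice and lower in 2. A gain of pericytes over fibroblasts was therefore not detectable with these numbers of cells, and this ratio depends on the mixing as well.

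**Figure D2:**
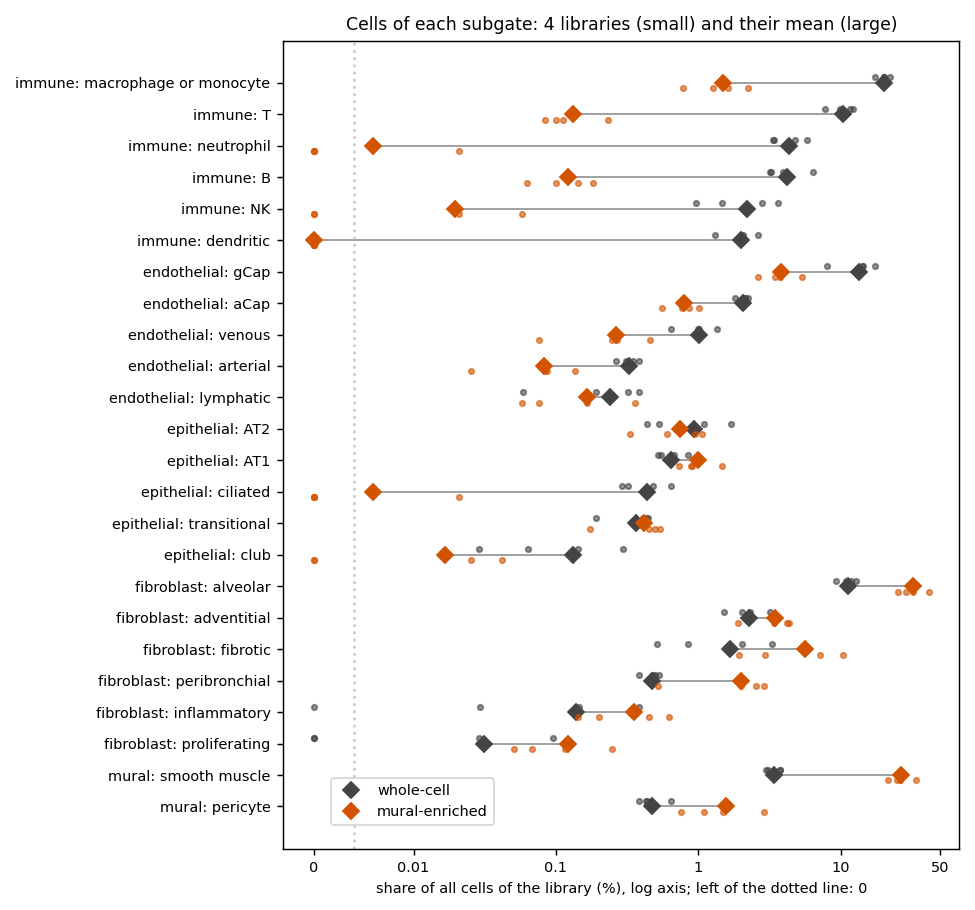
Share of all cells of a library (percent, log axis, with 0 placed left of the dotted line) for each subgate, with small points for the 4 libraries of a fraction and diamonds for their mean. Every immune, endothelial and airway epithelial subgate has a lower mean and every fibroblast and mural subgate a higher mean in mural-enriched libraries.

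The immune lineages were not depleted to the same extent. Neutrophils numbered 600 in whole-cell and 1 in mural-enriched libraries, and dendritic cells 284 and 0, where 0 allows up to 0.0180% of cells. T cells fell from 10.4% ± 2.00 to 0.132% ± 0.0667 of all cells, 78.8-fold, and B cells from 4.17% ± 1.51 to 0.122% ± 0.0514, 34.2-fold. Natural killer cells numbered 302 and 3. Macrophages and monocytes fell by 13.5-fold, from 20.0% ± 1.89 to 1.48% ± 0.616 of all cells. They were thus 40.5% ± 4.88 of the immune gate in whole-cell libraries and 80.9% ± 2.24 in mural-enriched ones (log2 ratio 0.99 ± 0.122, edgeR adjusted p = 0.00019). Within the immune gate, neutrophils (log2 ratio -4.68 ± 0.722, adjusted p = 0.000794), T cells (-1.55 ± 0.292, adjusted p = 0.00219), natural killer cells (-2.15 ± 0.606, adjusted p = 0.0178) and dendritic cells (adjusted p = 0.00945) fell. The B cell share of the gate was 8.28% ± 2.09 against 7.49% ± 3.89 (adjusted p = 0.673).

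Airway epithelial cells were removed to a larger extent than alveolar ones. Ciliated cells, which carry motile cilia, numbered 62 in whole-cell libraries (22, 9, 20 and 11 by mouse) and 1 in mural-enriched ones, and club cells, the secretory cells of the airway, numbered 19 and 3. Both fell as a share of the epithelial gate, by 5.40 ± 0.615 (adjusted p = 0.000184) and by 2.27 ± 0.672 (adjusted p = 0.0193) on the log2 scale. AT1 cells, the flat cells of gas exchange, rose from 24.2% ± 4.04 to 40.7% ± 8.41 of the gate (log2 ratio 0.76 ± 0.222, adjusted p = 0.0193). AT2 cells, which make surfactant, had shares of 33.2% ± 17.3 and 29.5% ± 9.94 that did not pass the test (adjusted p = 0.605). For every 100 fibroblasts, AT1 cells were 3.66 ± 1.11 against 2.02 ± 0.692 and AT2 cells 5.47 ± 3.76 against 1.5 ± 0.678. Both types were thus fewer on that scale in all 4 mice. AT2 cells, 3.66-fold fewer, did not overlap between fractions, while AT1 cells, 1.81-fold fewer, did.

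Among fibroblasts, adventitial cells, which surround vessels and airways and carry *Pi16* and *Dpp4*, fell from 12.8% ± 4.86 to 6.99% ± 2.28 of the gate (log2 ratio -0.84 ± 0.149, adjusted p = 0.00174). Fibrotic fibroblasts (*Cthrc1*, *Postn*) rose from 8.89% ± 6.0 to 11.1% ± 7.40, higher in the mural-enriched library of all 4 mice (log2 ratio 0.32 ± 0.115, adjusted p = 0.0435). Alveolar fibroblasts had 62.6% ± 10.2 and 64.8% ± 15.6 of the gate (adjusted p = 0.811). Among endothelial cells, lymphatic cells rose from 1.16% ± 0.610 to 2.97% ± 2.30 of the gate (log2 ratio 1.30 ± 0.431, adjusted p = 0.0330), on 35 and 29 cells. The share of the gate was higher in 3 mice and lower in WT mouse 2, and as a share of all cells the lymphatic mean was 0.238% in whole-cell and 0.165% in mural-enriched libraries. General capillary cells (gCap) made up 69.2% ± 4.67 and 65.5% ± 2.31 of the gate (adjusted p = 0.538). In all, 13 of the subgates passed the test within their gate, counting ungated cells of a gate as 1 of them.

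The genes of the depleting antigens were then read within the cells that remained. *Pecam1* (GRCm38 chromosome 11, 106654217 to 106750628) fell in whole libraries by 2.38 ± 0.115 on the log2 scale (edgeR adjusted p = 1.9e-05), with 123 to 251 CPM (UMIs scaled by TMM and library size) in whole-cell and 28.3 to 46.6 in mural-enriched libraries. Within the endothelial gate it had 1225, 1246, 1254 and 1253 CPM in whole-cell and 1117, 1170, 1122 and 1170 CPM in mural-enriched libraries. Levels were lower after depletion in all 4 mice but by 0.12 ± 0.0557 on the log2 scale only (edgeR adjusted p = 0.17). The 95% interval of this difference, taken from the normal distribution and so too narrow for 4 mice, ran from -0.23 to -0.01.

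*Ptprc* (GRCm38 chromosome 1, 138062861 to 138175708), the gene of CD45, had 348 to 480 CPM in whole-cell and 6.28 to 15.6 CPM in mural-enriched libraries. Within the immune gate it had 785, 824.6, 741.7 and 737.7 CPM before and 555.6, 487.1, 511.5 and 461.0 CPM after depletion. The 2 groups did not overlap, and the gene fell by 0.62 ± 0.102 on the log2 scale (edgeR adjusted p = 0.000711). In macrophages and monocytes alone it fell by 0.56 ± 0.113 (edgeR adjusted p = 0.00278), from 651 to 738 CPM in whole-cell to 432 to 550 CPM in mural-enriched libraries. *Epcam* (GRCm38 chromosome 17, 87635979 to 87651129) fell in whole libraries by 1.56 ± 0.297 (edgeR adjusted p = 0.0039). Within the epithelial gate it had 341.7, 298.1, 374.5 and 380.5 CPM against 211.3, 220.3, 350.3 and 348.2 CPM, lower in all 4 mice without passing the test (log2 fold change -0.33 ± 0.127, edgeR adjusted p = 0.118). It was 0.05 in AT1 cells and 0.0003 in AT2 cells on the log2 scale.

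*Mcam* (GRCm38 chromosome 9, 44134469 to 44142727) rose in whole libraries by 0.50 ± 0.158 (edgeR adjusted p = 0.0293), with 49.9 to 83.1 CPM against 84.1 to 108 CPM. Its level within the mural gate was 271 to 372 CPM in whole-cell and 320 to 373 CPM in mural-enriched libraries (log2 fold change 0.06 ± 0.0622, edgeR adjusted p = 0.733). *Pdgfra* (GRCm38 chromosome 5, 75152292 to 75198215) had 448 to 575 CPM in whole-cell and 387 to 589 CPM in mural-enriched fibroblasts (log2 fold change -0.09 ± 0.0549, edgeR adjusted p = 0.389). Other surface genes of mural cells rose in whole libraries, *Pdgfrb* by 1.62 ± 0.0716 and *Cspg4*, the gene of NG2, by 2.08 ± 0.108 on the log2 scale, and did not pass the test within the mural gate. *Anpep* fell in whole libraries by 0.68 ± 0.130. *Cxcl10*, an interferon-induced chemokine, rose in whole libraries by 1.30 ± 0.103 (edgeR adjusted p = 9.3e-05), with 43.6 to 66.9 CPM against 105 to 212 CPM.

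**Figure D3:**
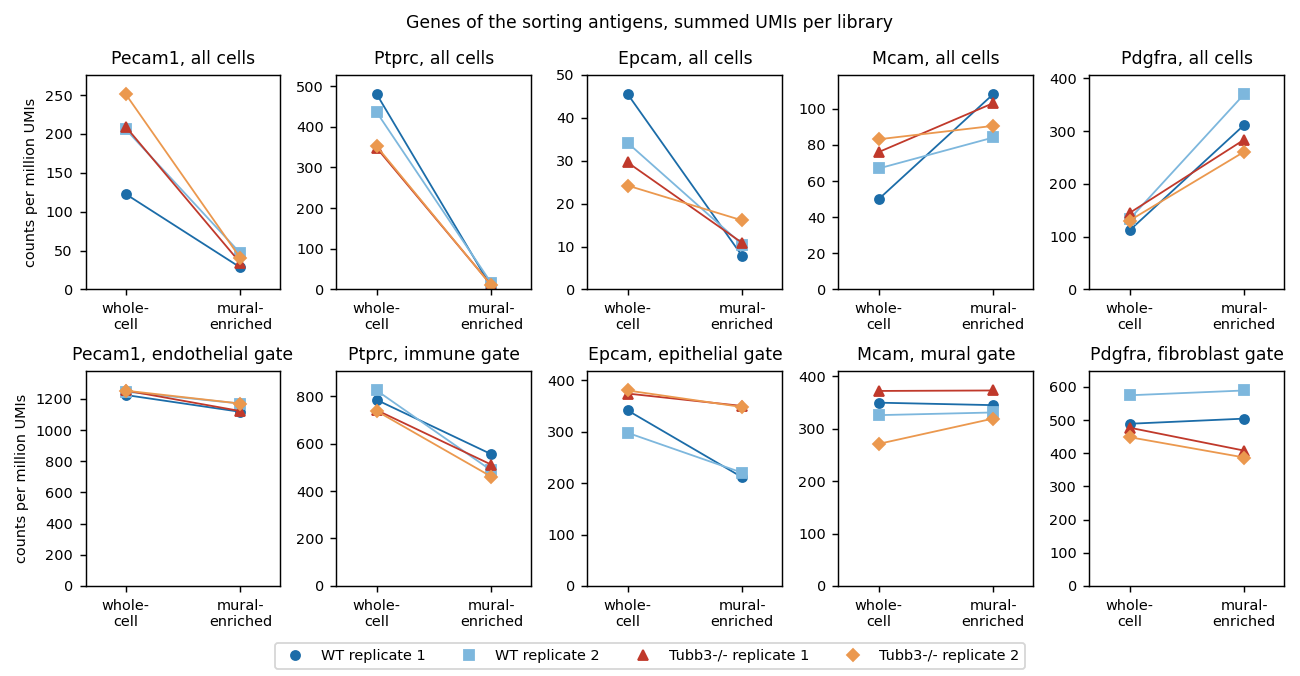
TMM-scaled CPM of the genes of CD31, CD45, EpCAM, MCAM and PDGFRα, from summed UMIs of all cells of a library (top) and of the cells of 1 gate (bottom), with linear axes from 0 and a line for each mouse. *Ptprc* is lower in the immune gate of every mural-enriched library, while *Pecam1*, *Mcam* and *Pdgfra* differ little within their gates.

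Over all cells, the 2 fractions differed in most genes. In a fit with mouse and fraction as terms, 13239 of 18659 genes passed an adjusted p of 0.05 (71.0%), 6705 higher and 6534 lower in mural-enriched libraries. Genes of muscle contraction led the rises. *Abra*, an actin-binding regulator of striated and smooth muscle, had 2.43 to 5.55 CPM in whole-cell and 20.9 to 34.1 CPM in mural-enriched libraries (log2 fold change 2.90 ± 0.13). *Mylk4*, *Actc1* and *Actg2* rose by 2.76 to 2.86. The falls were led by leukocyte genes. *Il12b*, the p40 chain of interleukins of dendritic cells, had 6072 UMIs in whole-cell and 3 in mural-enriched libraries, a ratio of 2834 with a 95% counting interval of 969 to 13744. *S100a9* and *Retnlg* of neutrophils, *Igha* of plasma cells and *Marco* of alveolar macrophages fell by 9.24 to 10.6 on the log2 scale. Of all genes 35.9% were called higher and 35% lower. All 8 contractile, all 10 abundant matrix and all 8 basement membrane genes on the lists rose, while 8 of 8 abundant immune and 10 of 10 cell cycle genes fell. Of 16 immediate-early genes 12 rose and 0 fell, of 9 heat shock genes 6 rose and 0 fell, of 12 interferon genes 4 rose and 5 fell, and of 10 secreted epithelial genes 5 fell and 0 rose.

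Do cells of 1 type differ between fractions? UMIs were summed over the cells of a gate and tested in the same way, without the marker genes of the gate. Calls made up 9.48% of 15713 genes in the fibroblast gate, 4.26% of 12508 in the mural gate, 16.5% of 11109 in the endothelial gate, 26.1% of 13492 in the immune gate, 15% of 10953 in the epithelial gate and 0.896% of 9155 in the mesothelial gate. Gates differed in cells and UMIs and so in what the test could call. In subgates with enough cells the share of genes called was 1.05% in pericytes, 3.39% in smooth muscle cells, 6.67% in alveolar fibroblasts, 13.4% in gCap cells, 25.8% in macrophages and monocytes, 0.844% in AT1 cells and 1.13% in AT2 cells.

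Many of these calls were genes of another gate. *Chil3*, a secreted protein of alveolar macrophages (GRCm38 chromosome 3, 106147554 to 106167564), was among the 5 genes that fell most in the fibroblast, mural, endothelial and mesothelial gates. Fibroblasts of whole-cell libraries had 126, 124, 96.8 and 109 CPM of *Chil3*, and those of mural-enriched libraries 0.716, 0.761, 0.929 and 1.1 CPM (log2 fold change -6.94 ± 0.101). In the endothelial gate the levels were 116 to 130 CPM against 0 to 2.32 CPM. Of the 906 genes lower in mural-enriched fibroblasts, 71.4% had their highest level in the immune gate of whole-cell libraries, against 18.2% of all genes tested there. That share was 71.8% of 393 genes in the mural gate, 50.5% of 847 in the endothelial gate and 69.6% of 46 in the mesothelial gate. Over all genes tested in these gates it was 17.5%, 18.4% and 17.3%. In the epithelial gate it was 10.5% of 1179 genes, against 16.6% of the genes tested. The 8 abundant immune genes, which include *S100a8*, *S100a9*, *Cd74* and *Lyz2*, summed to 709 to 1029 CPM (plain, not scaled by TMM) in whole-cell and 163 to 243 in mural-enriched fibroblasts. All 8 passed the test as lower in the fibroblast, mural and endothelial gates, where 5.77%, 3.14% and 7.62% of all genes were called lower.

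Genes of contraction and matrix were higher within gates of other cells. In the endothelial gate *Actc1*, *Actg2*, *Tpm2*, *Des* and *Acta2* led the rises, by 2.94 to 3.46 on the log2 scale. *Acta2*, smooth muscle actin, had 78.8, 85.8, 62.0 and 61.9 CPM in endothelial cells of whole-cell libraries and 622, 627, 491 and 477 CPM in those of mural-enriched libraries. Summed over the list, contractile genes had 156 to 239 plain CPM in whole-cell and 1276 to 1663 in mural-enriched endothelial cells. The immune gate had 114 to 130 against 680 to 901, and the mesothelial gate 158 to 393 against 743 to 1802. Within the mural gate itself the same sum was 28450 to 38630 against 32755 to 38748. Of genes higher in a mural-enriched gate, those with their highest level in the fibroblast, mural or mesothelial gate of mural-enriched libraries were 54.4% of 982 in endothelial, 47.5% of 1890 in immune and 57.3% of 464 in epithelial cells, against 33.1%, 32.7% and 33.2% of the genes tested. Genes with their highest level in the gate itself were 37.3%, 30.9% and 30.0% of those higher, against 34.0%, 19.6% and 27.9% of the genes tested. The genes were picked as higher in these same libraries, so an excess for the gate itself is built in and nothing is drawn from it. Levels of these genes in a gate moved with the cell composition of the pool, and the part of free RNA, of doublets and of the cells themselves in them was not tested.

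**Figure D4:**
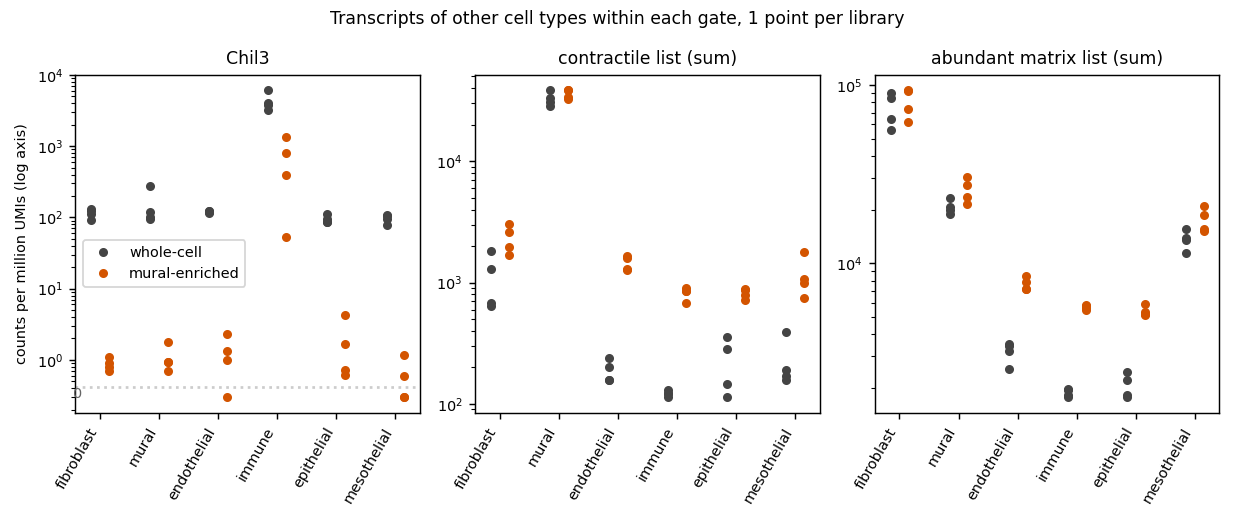
Summed plain CPM (log axes) of *Chil3*, of the 8 contractile and of the 10 abundant matrix genes within each gate, with 1 point per library. *Chil3* lies between 79.5 and 273 CPM in the 5 non-immune gates of whole-cell libraries and at 0 to 4.25 in mural-enriched ones, while contractile and matrix genes are higher in the endothelial, immune and epithelial gates of mural-enriched libraries.

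*Mcam* and *Pdgfra* were also read in the gates where they are low. *Mcam* in fibroblasts was 5.49, 5.40, 5.55 and 4.89 CPM in whole-cell and 16.0, 14.3, 15.3 and 13.3 CPM in mural-enriched libraries (log2 fold change 1.46 ± 0.0766, edgeR adjusted p = 3.0e-06). *Pdgfra* in the mural gate, where it led the rises, was 5.75, 9.97, 4.32 and 3.03 CPM against 16.2, 21.3, 21.8 and 18.2 CPM (log2 fold change 1.84 ± 0.235, edgeR adjusted p = 0.000679). These are 37 and 1046 UMIs, and *Pdgfra* was at 387 to 589 CPM in mural-enriched fibroblasts. *Cthrc1*, *Has1*, *Sfrp1* and *C3*, all genes of fibroblasts, rose with it in the mural gate by 1.60 to 1.81. Of the 10 abundant matrix genes 7 rose there, against 1.12% of all genes, *Col1a1* by 0.36 ± 0.0607 and *Col3a1* by 0.36 ± 0.0558. Of the 140 genes that rose in the mural gate, 41.4% had their highest level in the fibroblast, 17.9% in the mural and 21.4% in the mesothelial gate. Over all genes tested there these shares were 10.0%, 14.6% and 14.9%. Levels were read in the same mural-enriched libraries as the rises, which by itself favors the mural gate.

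Genes that belong to the gate itself were singled out as those at a level of at least 2 times that of every other gate in both fractions, a rule made after the data had been seen. Of 427 such genes in the mural gate 10 were higher and 6 lower, 3.75% against 4.26% of all genes tested there. *Vtn*, vitronectin, which pericytes make, was lower, with 33.2, 42.2, 55.8 and 47.9 CPM in whole-cell and 7.47, 33.6, 21.0 and 20.9 CPM in mural-enriched libraries (log2 fold change -1.23 ± 0.210, edgeR adjusted p = 0.00531). Within pericytes alone it had a log2 fold change of -0.64 ± 0.170 that did not pass the test (edgeR adjusted p = 0.0738), and the share of pericytes in the gate was lower too. In pericytes alone 36 genes were called, 24 higher and 12 lower. *Tubb3* had a log2 fold change of -0.35 ± 0.304 and *Cxcl10* of 0.75 ± 0.235 in the mural gate, and neither passed the test (edgeR adjusted p = 0.669 and 0.122).

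In fibroblasts, 43 of 509 such genes were higher and 18 lower, 12.0% against 9.48%. *Cthrc1*, a secreted protein of fibrotic fibroblasts, rose from 68.5, 46.8, 225 and 120 CPM to 126, 76.2, 304 and 186 CPM (log2 fold change 0.65 ± 0.0635, edgeR adjusted p = 0.000144). *Postn*, periostin, rose by 0.81 ± 0.142 and *Grem1*, a BMP antagonist, by 1.03 ± 0.178. The share of fibrotic fibroblasts in the gate, which *Cthrc1* and *Postn* helped to define, was higher too. *Col1a1* did not pass the test (0.08 ± 0.0409, edgeR adjusted p = 0.315). *Cxcl10* rose by 0.33 ± 0.0620 (edgeR adjusted p = 0.00869), with 183, 94.6, 132 and 87.4 CPM in whole-cell and 248, 128, 138 and 115 CPM in mural-enriched fibroblasts. It was higher in the mural-enriched library of each mouse, and WT mouse 1 was highest in both fractions.

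Hemoglobin genes were lower in mural-enriched libraries as a whole and higher within their fibroblasts. The 4 genes fell in whole libraries, with a median log2 fold change of -1.58, and all 4 rose in the fibroblast and the mural gate. *Hbb-bs* had 12.5, 10.9, 21.5 and 11.5 CPM in whole-cell and 110, 251, 253 and 207 CPM in mural-enriched fibroblasts (log2 fold change 3.83 ± 0.159, edgeR adjusted p = 7.97e-07). Most of these UMIs lay in 12 of 8275 cells. Cells with 20 or more hemoglobin UMIs numbered 12 in mural-enriched fibroblasts and 1 in those of whole-cell libraries. Without them the 4 genes summed to 16.9 to 18.6 plain CPM in whole-cell and 12.0 to 12.9 in mural-enriched fibroblasts, so the direction turned. In the mural gate 5 such cells of 4772 were found, and without them the sums were 12.1 to 28.3 against 13.6 to 17.7 plain CPM and overlapped. The level of whole libraries also lay in few cells. Among ungated cells of whole-cell libraries, 4, 5, 4 and 4 cells by mouse held 99.4% to 99.8% of 19637 to 29261 hemoglobin UMIs.

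In the endothelial gate, 88 of 754 such genes were higher and 64 lower, 20.2% against 16.5%. *Selp*, P-selectin, an adhesion molecule of venules, had 206, 141, 187 and 116 CPM in whole-cell and 32.4, 59.7, 30.8 and 60.9 CPM in mural-enriched libraries (log2 fold change -1.72 ± 0.217, edgeR adjusted p = 9.62e-05). *Ackr1*, a chemokine receptor of venules, had 739 and 9 UMIs and fell by 4.22 ± 0.397 (edgeR adjusted p = 7.37e-06), and *Sele*, E-selectin, had 659 and 6 UMIs and fell by 4.65 ± 0.340 (edgeR adjusted p = 5.76e-07). These genes were singled out after their values had been seen. Venous cells, which *Selp* helped to define, were 5.18% ± 0.409 and 4.25% ± 1.69 of the gate (adjusted p = 0.605). *Reln*, a gene of lymphatic endothelium, rose by 1.62 ± 0.245 (edgeR adjusted p = 0.000412), and the lymphatic share of the gate, which *Reln* helped to define, was higher too.

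Cell cycle and stress genes also fell in endothelial cells. In this gate 7.62% of all genes were called lower and 8.84% higher. Of 9 cell cycle genes tested, 8 fell, with a median log2 fold change of -1.21 against 0.00240 over all genes. *Mki67* had 12.3, 19.5, 71.0 and 75.3 CPM in whole-cell and 12.7, 9.19, 16.2 and 29 CPM in mural-enriched libraries (log2 fold change -1.46 ± 0.205, edgeR adjusted p = 0.00023), and it was higher in Tubb3-/- than in WT mice in whole-cell libraries. WT mouse 1 did not share this direction. Heat shock genes fell in 6 of 9 and immediate-early genes in 9 of 16, with 1 higher. *Hspa1a* had 582 to 971 CPM against 292 to 588 CPM (log2 fold change -0.76 ± 0.116, edgeR adjusted p = 0.000455), and *Jun* fell by 0.37 ± 0.0619. In gCap cells alone, 5 of 9 heat shock, 7 of 16 immediate-early and 4 of 5 cell cycle genes fell. *Nr4a1*, an immediate-early gene, rose there, and 579 of 9779 genes were called lower and 734 higher.

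Cells of the immune gate moved the other way for immediate-early genes, of which 13 of 16 rose and 0 fell there, where 14.0% of all genes were called higher. *Egr1* had 94.4, 116, 96.2 and 110 CPM in whole-cell and 448, 592, 465 and 361 CPM in mural-enriched libraries (log2 fold change 2.15 ± 0.128, edgeR adjusted p = 4.58e-07). Macrophages and monocytes alone gave 12 of 16, with *Egr1* at 2.16 ± 0.127, where 1716 of 12204 genes were called higher. The difference between gates was not tested. The mural gate had 5 of 16 higher, where 1.12% of all genes were. The fibroblast gate had 1 of 16 higher, near the 3.72% of all genes. In alveolar fibroblasts alone 6 of 16 were higher and 0 lower, where 410 of 14668 genes were called higher. The epithelial and mesothelial gates had 0 of 16 in either direction, where 4.24% and 0.393% of all genes were called higher.

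The macrophages and monocytes that remained had another set of genes than those of the whole lung. Complement C1q genes, *Ms4a7* and chemokines led the rises in the immune gate. *C1qa* had 288, 77.1, 394 and 375 CPM in whole-cell and 4586, 4682, 4438 and 3153 CPM in mural-enriched immune cells (log2 fold change 4.08 ± 0.372, edgeR adjusted p = 7.78e-06). *Ms4a7*, *C1qc*, *Ccl12* and *Cxcl13* rose by 4.06 to 4.27. C1q, *Stab1* and *Folr2* are known from interstitial macrophages of the lung, while *Marco* and *Chil3* mark alveolar macrophages and *Ly6c2* classical monocytes. Within macrophages and monocytes alone, *Ms4a7* rose by 3.68 ± 0.343, *C1qa* by 3.48 ± 0.394 and *Stab1* by 3.52 ± 0.373, and *Marco* fell by 6.40 ± 0.357 and *Chil3* by 3.65 ± 0.520 on the log2 scale. *Ly6c2* had 3978 and 1 UMIs in these cells.

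Counted as cells thinned to 2000 UMIs each, 18.8%, 4.82%, 19.9% and 15.8% of macrophages and monocytes in whole-cell libraries had a UMI of *C1qa*. In mural-enriched libraries 96.8%, 89.7%, 85.9% and 85.7% had one, in 31, 78, 78 and 56 cells. Fibroblasts, which should lack the gene, had one in 0.976% to 2.01%. Unthinned, the shares were 15.7% to 32.7% and 89.3% to 100%, at median depths of 17556 to 22994 and 12245 to 17534 UMIs in these cells. *Stab1* was found in 1.17% to 5.28% and 28.6% to 35.9% of thinned cells, against 0.268% to 1.48% of fibroblasts. For *Marco* the shares were 6.01% to 13.1% and 0% to 1.79%, and for *Chil3* 63.0% to 74.3% and 3.23% to 16.7%. Fibroblasts of whole-cell libraries had *Chil3* in 15.5% to 21.3% of thinned cells. As a share of all cells, macrophages and monocytes with *C1qa* were 1.06% to 3.76% of whole-cell and 0.755% to 2.01% of mural-enriched libraries, and in WT mouse 2 they were a larger share after depletion. Those without *C1qa* were 14.0% to 20.9% and 0.0252% to 0.230%, fewer by 61.3-fold to 647-fold in the 4 mice. They numbered 1, 8, 11 and 8 cells in the mural-enriched libraries, and the 647-fold of WT mouse 1 rests on 1 cell.

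**Figure D5:**
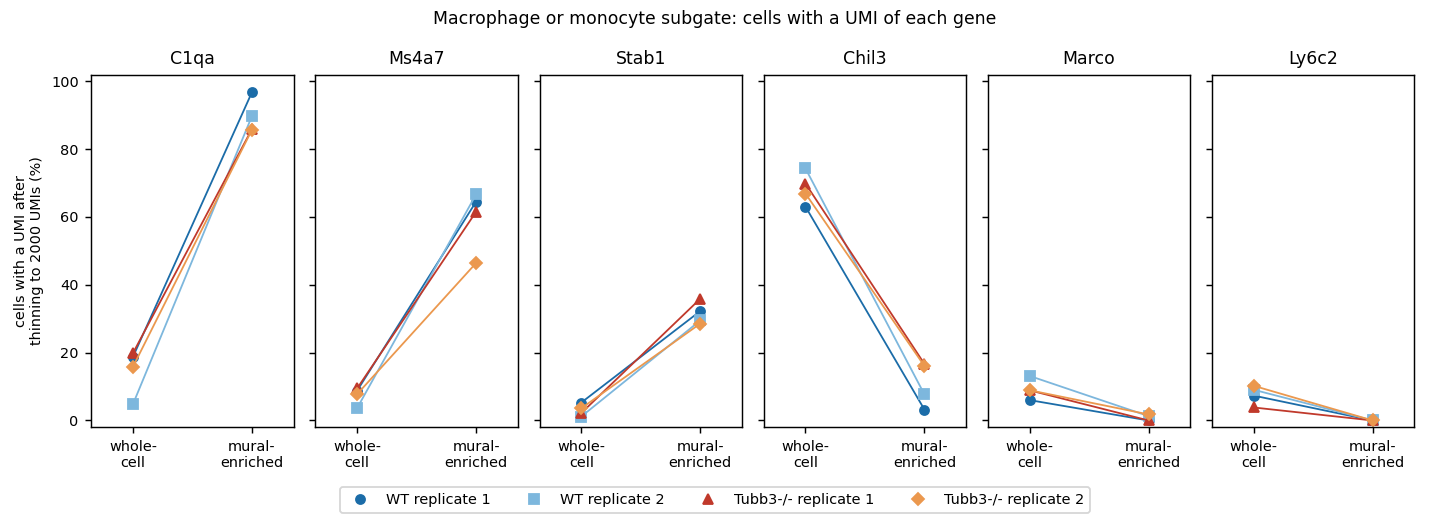
Share of cells of the macrophage or monocyte subgate with at least 1 UMI of each gene (percent, linear axis) after thinning to 2000 UMIs per cell, with a line joining the 2 libraries of a mouse. *C1qa*, *Ms4a7* and *Stab1* are found in more, and *Chil3*, *Marco* and *Ly6c2* in fewer, cells of every mural-enriched library.

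Genes of dendritic cells fell most in the immune gate. *Cd209a* had 61.5, 16.5, 47.8 and 30.8 CPM in whole-cell immune cells and 0 UMIs in mural-enriched ones, at least 65.6-fold lower against a floor of 3 UMIs over the 4 libraries. *Il12b* had 5720 UMIs and 1 UMI, a ratio of 291 with a 95% counting interval of 52.2 to 11504, and *Xcr1*, a receptor of cross-presenting dendritic cells, had 3115 UMIs and 1 UMI. *Cxcl10* rose in the immune gate by 2.15 ± 0.334 (edgeR adjusted p = 0.000458), with 19.3 to 34.3 CPM against 43.5 to 331 CPM.

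In the epithelial gate, 37 of 747 genes that belong to it were higher and 212 lower, 33.3% against 15%. *Tmem212*, of ciliated cells, had 390, 252, 541 and 356 CPM in whole-cell and 3.73, 0.566, 12.0 and 8.87 CPM in mural-enriched libraries (log2 fold change -5.89 ± 0.273, edgeR adjusted p = 5.77e-07). The share of ciliated cells in the gate, which *Tmem212* helped to define, was lower too. *Scgb3a1*, secreted by airway cells, had 1931, 1438, 16.0 and 4.22 CPM in whole-cell libraries and 0 to 6.50 CPM in mural-enriched ones, and *Sult1d1* had 201 and 0 UMIs, at least 68.2-fold lower. *Sprr1a*, a squamous envelope protein, rose from 50.3, 31.8, 63.0 and 25.3 CPM to 137, 302, 950 and 371 CPM (log2 fold change 3.12 ± 0.350, edgeR adjusted p = 1.0e-04). *Scel*, which AT1 cells express, rose by 1.30 ± 0.223 (edgeR adjusted p = 0.00211). Within AT1 cells alone it had a log2 fold change of 0.47 ± 0.198 that did not pass the test (edgeR adjusted p = 0.565). The share of AT1 cells in the gate was higher too. *Sftpc*, surfactant protein C, did not pass the test (edgeR adjusted p = 0.934). *Sgcd*, *Actc1* and *Pcdh7*, whose levels in the gate were 1.16 to 6.37 CPM in whole-cell and 19.2 to 60.6 CPM in mural-enriched libraries, also led the rises.

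In mesothelial cells 36 genes were higher and 46 lower, on 107 whole-cell and 331 mural-enriched cells, the fewest cells of the gates with a fit. Of 354 genes that belong to the gate, 1 was higher and 1 lower, 0.565% against 0.896% of all genes tested there. The genes that led were again *Actc1* and *Acta2* upward, and *S100a9* and *Ccl5* downward, both with 0 UMIs in mural-enriched mesothelial cells. In whole-cell mesothelial cells 1 library held most of either gene. *S100a9* was at 881 CPM in WT mouse 2 and at 17 to 26.8 CPM in the other 3 mice, and *Ccl5* was at 469 CPM in WT mouse 1 and at 12.4 to 71.5 CPM in the other 3.

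A small group of transcripts was lower in each of the 6 gates and in whole libraries. *Gm42418*, which overlaps an rRNA locus on the opposite strand, had 15750 to 17800 CPM in whole-cell and 9524 to 10280 CPM in mural-enriched libraries (log2 fold change -0.77 ± 0.0773, edgeR adjusted p = 0.000241), and fell by 1.09 ± 0.0414 in the mural and by 0.92 ± 0.0498 in the endothelial gate. *Cmss1*, *Lars2* and *Camk1d* fell with it, *Cmss1* by 1.42 ± 0.0526 in whole libraries and by 1.67 ± 0.0487 in the mural gate. They were singled out after their values had been seen, and whether they differ by fraction or by pool cannot be told apart.

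Whether the difference between fractions depended on genotype was tested with an interaction term over whole libraries of 2 mice each. In edgeR 0 genes passed an adjusted p of 0.05, and 2152 of 18659 had an unadjusted p under 0.05. DESeq2 called 222 genes for the same term, 67 higher and 155 lower.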

How the data were processed

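The deposited counts were UMI counts per gene and cell from 10x 3' v3.1 libraries. The authors made them with Cell Ranger 7.1.0 on mm10 with an added Cre gene. The matrices were deposited already split by mouse, and each was tied to its mouse by its leading cell tag. That tag held 88.1% to 94.7% of the tag UMIs of a matrix. Rows of tags were left out. Cells with 200 to 7500 genes and at most 15% mitochondrial UMIs were kept. Cells were gated on the mean of the 3 highest of each gate's markers, in UMIs per 10000, with at least 3 markers detected and a margin of 1 (log2) over the next gate, and subgates with at least 2 markers and a margin of 0.5. Markers, lists and alternatives were chosen with earlier results of these data known, and the gate scoring rule, the genes that belong to a gate and the counts per 100 fibroblasts were set after seeing the data. Doublet calls (Scrublet in scanpy 1.11.5) were not removed.

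UMIs were summed per library and gate where every library had at least 10 cells, filtered with filterByExpr, scaled with TMM and tested with the quasi-likelihood F test of edgeR 4.0.16 (R 4.3.3), with mouse and fraction as terms, 3 residual degrees of freedom and Benjamini-Hochberg adjustment at 0.05. Numbers of cells were tested in the same way with cell totals as library sizes. DESeq2 1.42.0 was an alternative. SE are of the log2 fold change, SD are over 4 libraries, and intervals of single shares and floors of 3 UMIs cover counting error only. The 2 libraries of a mouse are from 1 animal. Across genes, deviations from the fraction mean correlated within mice at r = 0.273, 0.589, 0.6 and 0.483 in whole libraries (9598 genes), against -0.587 to 0.153 between different mice. Named genes were the antigen genes, gate markers, the 5 largest called rises and falls of genes that averaged 10 CPM or more and moved 1 way in 4 mice, list members, *Tubb3* and *Cxcl10*, and others are said to have been singled out. A gene that this rule names is not reported here. Positions are from the GRCm38 annotation. The tests were tested on simulated data.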

Additional observations from a re-analysis of the deposited data

Results flagged for a closer look

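In groups of 4 libraries, 79 in all, a value far from the other 3 was looked for with Dixon's criterion, which flags about 1 in 20 groups by chance. Dendritic cells were 2.70% of the immune gate in the whole-cell library of WT replicate 2, against 4.27% to 4.58% in the other 3. *C1qa* in the immune gate was 3153 CPM in the mural-enriched library of Tubb3-/- replicate 2, against 4438 to 4682 CPM in the other 3. The added Cre gene, which no comparison used, had 4 UMIs in the libraries of Tubb3-/- mice and 0 in those of WT mice.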

How the results depend on the processing

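Of the values that answer a comparison, 161 kept direction and side of the threshold under an alternative, 22 moved, 6 became weaker, 1 stronger and 3 reversed; of single genes and subgates, 1438 kept both, 57 became weaker, 2 stronger and 11 reversed, and where no cause is given the cause was not tested. With TMM scaling over the gates, the log2 ratios were -1.28 for epithelial, 0.33 for fibroblast, 0.35 for mesothelial, 1.12 for glial and -0.36 for ungated cells, and 4 gates passed instead of 7; by the exact sign-flip test, which cannot pass, 0 did. The epithelial gate had 0.12 with thinned cells and -0.37 to 0.0243 with 1 replicate left out, highest without WT replicate 1. Glial cells had 1.51 with the wider margin, 2.21 thinned and 1.64 to 2.49 with 1 replicate left out, not passing (2.01) without WT replicate 2. Among subgates that had not passed the test, the log2 ratio with 1 replicate left out ran from -0.61 to 0.0157 in arterial cells (highest without WT replicate 1), -0.39 to 0.0615 in AT2 cells (WT replicate 2), -0.0413 to 0.0887 in alveolar fibroblasts (negative without either WT replicate), -0.24 to 0.69 in inflammatory fibroblasts and -0.62 to 0.13 in B cells (both highest without Tubb3-/- replicate 1), and was 0.13 in B cells thinned and transitional cells -0.19 with the wider margin. *Epcam* in the epithelial gate was 0.051 in AT1 and 0.0003 in AT2 cells alone and *Mcam* in the mural gate -0.0875 in pericytes alone, alternatives chosen after seeing the data. Subgates called were 13, 7 with no replicate block, 8 to 12 with 1 replicate left out, lowest without WT replicate 1, and 8 with the wider margin. Called genes with no replicate block were 604 in the fibroblast gate (1490 with the mouse as a block) and 803 in the endothelial gate (1829). The endothelial gate had 1132 by DESeq2 and 985 to 2503 with 1 replicate left out, lowest without Tubb3-/- replicate 1. With no filter, calls were 2349 in fibroblast, 1458 in mural (533), 2515 in epithelial (1643), 277 in mesothelial (82) and 2 in the genotype interaction (0), for which DESeq2 gave 222. The epithelial gate had 271 with the wider margin, 760 thinned, 54 in AT1 and 85 in AT2 cells alone, the fibroblast gate 979 in alveolar cells alone and the mural gate 36 in pericytes alone, all with fewer cells. Without TMM the endothelial gate had 1308 higher and 617 lower genes, against 982 and 847, and the immune gate 1562 and 2391, against 1890 and 1637. The wider margin was not run in the mesothelial gate and no gene fit in glial and erythroid cells, with under 10 cells in a library. The number of cells limits the rarest types, of which some mural-enriched libraries held 0 to 3 cells.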
